A study of Mus musculus with 75 samples.

Results

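The tissue inhibitors of metalloproteinases (TIMPs) form a family of 4 genes in the mouse, Timp1, Timp2, Timp3 and Timp4, and their transcripts were followed in the lung after bleomycin (BLEO). Members were taken by gene symbol from the deposited count table, and all 4 of the 55536 listed genes that carry these names had enough counts to be tested, among 16221 genes tested in all. RNA sequencing covered the inferior lobe of 75 male C57BL/6JRj mice, of which 10 were healthy controls (CTRL) and the others BLEO-IPF mice, a model of idiopathic pulmonary fibrosis made by 1 dose of BLEO into the trachea. Tissue was taken from 10 BLEO-IPF mice on day 7, from 7 on day 42 and from 12 at each of the time points between, days 14, 21, 28 and 35. Mice were 12 to 14 weeks old at the start, and BLEO-IPF mice entered a group only if they had lost 5% to 17% of body weight by day 6, so mice with a very mild or a severe reaction are not represented. The CTRL mice are called saline-treated in the sample labels and untreated in the treatment protocol. They were a single group, so each BLEO day was compared with the same 10 mice, and a change with mouse age over the 6 weeks cannot be told apart from a change with time after BLEO.

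TIMPs are small secreted proteins that bind the catalytic zinc site of matrix metalloproteinases (MMPs) and block them, and so limit how fast collagen and other matrix proteins are broken down. Timp1 is the inducible member, raised by cytokines and growth factors, and it also binds the surface protein CD63. Timp2 is made at a steady level in many tissues and, besides blocking MMPs, takes part in the activation of pro-MMP2 by MMP14 on the cell surface. Timp3 is held in the extracellular matrix and blocks several ADAM and ADAMTS proteases as well as MMPs, and Timp4 is the member with the narrowest tissue distribution.

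In GRCm38, Timp1 (ENSMUSG00000001131) lies at chrX:20870166-20874735 on the plus strand, and Timp2 (ENSMUSG00000017466) at chr11:118301069-118355740 on the minus strand. Timp3 (ENSMUSG00000020044) lies at chr10:86300372-86349506 on the plus strand, and Timp4 (ENSMUSG00000030317) at chr6:115241892-115252205 on the minus strand. All are protein-coding. Each except Timp2 sits within a synapsin gene on the opposite strand, Timp1 in Syn1, Timp3 in Syn3 and Timp4 in Syn2, while Timp2 contains Cep295nl on its own strand. Exons of Timp1 and Syn1 do not overlap, those of Timp3 and Syn3 share 1733 bases, and those of Timp4 and Syn2 share 90 bases. The libraries were stranded, but how the counting used strand was not given in the sources used here. Counts of Syn1 and Syn3 came to 3.10% and 0.0877% of those of Timp1 and Timp3, but Syn2 counts came to 578% of Timp4 counts, so the values of Timp4 carry this uncertainty. The level of Timp3 carries it too, because how reads in the 1733 shared bases were counted is not known.

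RefSeq promoter windows in GRCm38.p6, from 250 bases before to 50 bases after the transcript start, were found for 4 of 4 members. The windows of Timp1, the member with the largest change, and of Timp3, the member with the most counts, are given here 5′ to 3′. Capitals mark the GC box GGGCGG, or its reverse complement, in both and the AP-1 variant TGAGTAA in Timp1. The windows lie at chrX:20869916-20870215 and chr10:86300162-86300461, both on the plus strand.
Timp1: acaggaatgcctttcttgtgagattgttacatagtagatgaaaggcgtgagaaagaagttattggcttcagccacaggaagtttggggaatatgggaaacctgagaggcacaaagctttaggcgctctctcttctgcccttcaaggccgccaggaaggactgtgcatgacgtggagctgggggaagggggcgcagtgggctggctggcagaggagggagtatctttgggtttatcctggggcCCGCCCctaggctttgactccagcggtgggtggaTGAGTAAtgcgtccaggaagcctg
Timp3: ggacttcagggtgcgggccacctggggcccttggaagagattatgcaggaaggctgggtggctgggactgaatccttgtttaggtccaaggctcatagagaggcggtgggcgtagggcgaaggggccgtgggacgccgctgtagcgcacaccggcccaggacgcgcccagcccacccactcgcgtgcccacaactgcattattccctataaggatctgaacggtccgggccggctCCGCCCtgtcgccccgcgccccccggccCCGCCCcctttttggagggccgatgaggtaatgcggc
Both strands of all 32851 windows of this length were searched. The AP-1 variant TGAGTAA was present in 2.68% of them and, among the TIMP genes, in that of Timp1, where it begins 26 bases after the start. The GC box occurred in 35.7% of windows, once each in Timp1 and Timp2, at 2 places in Timp3 and not in Timp4. The AP-1 consensus TGANTCA (7.81% of windows), the TATA box TATAAA (13.6%) and the STAT site TTCNNNGAA (8.30%) had no match in the 4 windows. None of these motifs overlapped another in the 4 windows, and a match describes the letters only.

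Timp1 rose on all 6 days, Timp2 fell slightly on day 7 and rose slightly on day 14, Timp4 rose on day 7, and Timp3 passed the test on no day. A gene was called when its adjusted p was under 0.05 in edgeR's quasi-likelihood test, 1 fit over all mice with Benjamini-Hochberg adjustment over the 16221 genes. Of the 4 members, 3 were called on day 7, 2 on day 14 and 1, Timp1, on each later day. The shares of all tested genes called were 45.8%, 62.4%, 54.2%, 43.3%, 29.9% and 24.7% on the 6 days in turn. With 4 genes beside such a background, the number of members called is no result about the family. For days 7, 14 and 42 the median log2 fold change (log2FC) of the 4 members was 0.32, 0.11 and −0.17, beside 0.00, 0.01 and 0.01 over all genes tested. Because the RNA came from whole tissue, a change in the number of cells of a type and a change in RNA per cell cannot be told apart.

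Levels are given as CPM, the count of a gene relative to the total of its library after TMM scaling, which compare mice for 1 gene but not different genes. In CTRL mice Timp1 was low, from 3.78 to 6.52 CPM with a median of 5.31, on 37 to 82 counts. On day 7 it ranged from 65.3 to 150.3 CPM (median 101.2), and on day 14 from 42.5 to 295.6 CPM (median 126.6). On day 21 the range was 15.2 to 328.5 CPM (median 40.7) and on day 28 it was 7.82 to 149.8 CPM (median 32.7). Every BLEO-IPF mouse on these 4 days lay above every CTRL mouse. On day 35 Timp1 ranged from 9.33 to 32.7 CPM (median 15.9) and on day 42 from 9.78 to 49.2 CPM (median 16.3), again with no overlap with CTRL. Such separation from all CTRL mice was shown by 7.39%, 9.46%, 6.84%, 2.10%, 2.43% and 4.22% of tested genes on the 6 days in turn.

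The Timp1 log2FC against CTRL was 4.33 (SE 0.51, adjusted p = 2.41e-10) on day 7 and 4.78 (SE 0.51, adjusted p = 2.29e-12) on day 14, a 20.1-fold and a 27.4-fold rise. It was 4.18 (SE 0.50, adjusted p = 1.65e-10) on day 21 and 3.17 (SE 0.49, adjusted p = 4.15e-07) on day 28. By day 35 it had come down to 1.89 (SE 0.49, adjusted p = 0.00203), and on day 42 it was 1.98 (SE 0.54, adjusted p = 0.00480), a 3.94-fold excess over CTRL. Ranked by log2FC among all tested genes, Timp1 took places 21, 44, 48, 112, 297 and 186 on the 6 days in turn.

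**Figure D1:**
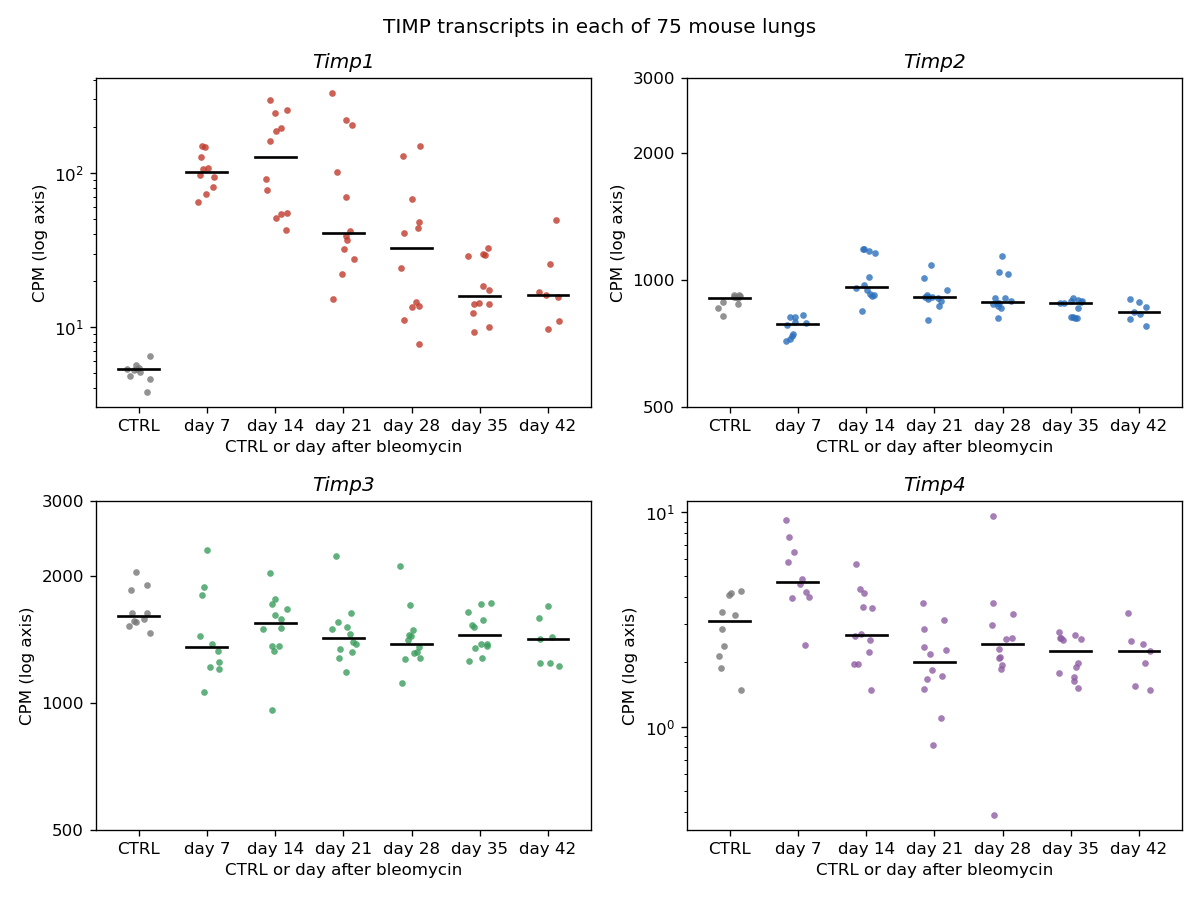
CPM of each TIMP gene in each mouse, by group, on log axes, with 1 point per mouse and a bar at the group median. Timp1 lies between 3.78 and 6.52 CPM in CTRL mice and above 7.82 CPM, or at it, in all BLEO-IPF mice. For Timp2, Timp3 and Timp4 the range on every day overlaps with that of CTRL mice.

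In order of group means, Timp1 was highest on day 14 (142.8 CPM), followed by days 7 (104.7), 21 (94.9), 28 (47), 42 (20.6) and 35 (19.3), with CTRL mice lowest at 5.19 CPM. Of the neighbours in this order, those called after adjustment were day 35 and CTRL. Day 28 against day 21 had a log2FC of −1.01 (95% interval −1.78 to −0.25, adjusted p = 0.235) and day 42 against day 28 of −1.19 (−2.15 to −0.24, adjusted p = 0.292), intervals that exclude 0 without reaching a call. Day 14 and day 7 differed by a log2FC of 0.45 (SE 0.40, adjusted p = 0.485). Over a longer span, day 42 was lower than day 14, with a log2FC of −2.80 (SE 0.52, adjusted p = 2.37e-05), although 1 of the 7 mice on day 42 lay within the range of day 14. In this comparison 18.8% of tested genes were called lower, among them 2 of the 4 members, Timp1 and Timp2.

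The spread of Timp1 between mice of 1 group changed with time. The coefficient of variation was 13.6% in CTRL mice and 27.8% on day 7, and it then reached 64.4%, 106% and 99.9% on days 14, 21 and 28, before it stood at 44.3% and 66.1% on days 35 and 42. On day 21 the highest mouse carried 21.6 times the Timp1 level of the lowest, against 1.72 times in CTRL mice. On day 14 the widest gap on the log2 scale lay between 91.0 and 162 CPM, with 6 of the 12 mice below and 6 above it. Such a gap was not particular to day 14. It was wider on days 21 (101.9 to 205.1 CPM), 28 (68.3 to 128.4 CPM) and 42 (25.7 to 49.2 CPM), with 3, 2 and 1 mice above it. It was narrower on days 7 and 35 and in CTRL mice. Any sorted set has a widest gap, and whether the mice formed separate groups was not tested.

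Timp2 changed little in size, with tight groups. CTRL mice ranged from 820.6 to 921.9 CPM (median 908.4). On day 7 the range was 716.5 to 824.2 CPM (median 786.9), and 9 of 10 mice lay below all CTRL mice. The log2FC was −0.21 (SE 0.05, adjusted p = 0.00120), a 1.15-fold lower level. On day 14 the direction was the opposite, with 846.1 to 1182 CPM (median 964.5) and 10 of 12 mice above all CTRL mice, a log2FC of 0.19 (SE 0.05, adjusted p = 0.00139). Between these days the log2FC was 0.39 (SE 0.05, adjusted p = 3.07e-07), in a comparison in which 17.0% of tested genes and 2 of the 4 members, Timp2 and Timp4, were called. Neither change of Timp2 against CTRL reached 0.5 on the log2 scale. On days 21, 28, 35 and 42 the Timp2 log2FC was 0.05, 0.05, −0.05 and −0.08, with adjusted p from 0.309 to 0.486. Day 42 was lower than day 14 by a log2FC of −0.27 (SE 0.06, adjusted p = 1.99e-04). In order of group means, only day 14, at 1016 CPM, was higher than its next neighbour, day 28 at 924.6 CPM (adjusted p = 0.0333), and no other neighbours were called. Day 42 against day 7 came nearest, with a log2FC of 0.12 (95% interval 0.01 to 0.24, adjusted p = 0.145).

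Timp3 had the most counts of the family and did not pass the test on any day. It ranged from 1461 to 2046 CPM (median 1609) in CTRL mice, from 1062 to 2300 CPM (median 1353) on day 7 and from 961.1 to 2032 CPM (median 1542) on day 14. The ranges on days 21, 28, 35 and 42 lay between 1116 and 2226 CPM and also overlapped with CTRL. Its log2FC was negative on all 6 days, from −0.13 (SE 0.10) on day 14 to −0.25 (SE 0.12) on day 42, with 95% intervals that reached down to −0.48 and up to 0.07. The lowest adjusted p was 0.0710, on day 28, and the unadjusted p was under 0.05 on days 28 (0.0333) and 42 (0.0372). A drop of this size could not be told from no change with these mice. The value on day 28 passed the threshold in some other fits, with an adjusted p of 0.0180 without BLEO_day28 replicate 1, 0.0395 without replicate 2 and 0.0490 without CTRL replicate 5. The same held on day 7 without BLEO_day7 replicate 5 (0.0347) and on day 21 without BLEO_day21 replicate 1 (0.0320). No neighbours in the order of its group means were called.

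Timp4 was close to the lower limit of detection, at 15 to 48 counts per CTRL mouse. It ranged from 1.48 to 4.27 CPM (median 3.09) in CTRL mice and from 2.40 to 9.15 CPM (median 4.72) on day 7, when 6 of 10 mice lay above all CTRL mice. The log2FC on day 7 was 0.82 (SE 0.26, adjusted p = 0.00648), a 1.77-fold rise. On day 14 the mice were back within 1.48 to 5.69 CPM (median 2.68), a log2FC of 0.03 (SE 0.25, adjusted p = 0.917) against CTRL and of −0.79 (SE 0.24, adjusted p = 0.0174) against day 7. This fall from day 7 to day 14 missed the threshold without BLEO_day7 replicate 5 (log2FC −0.67, adjusted p = 0.0535). On days 21, 28, 35 and 42 the Timp4 log2FC against CTRL was −0.52, −0.02, −0.46 and −0.44, with adjusted p of 0.0781, 0.952, 0.172 and 0.288. The value on day 21 passed the threshold without BLEO_day21 replicate 5 (0.0499), BLEO_day21 replicate 7 (0.0339) or CTRL replicate 9 (0.0462). In the order of means, day 7 and day 14 were the neighbours that were called.

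Fat around the lung can enter a sample, and 3 libraries had a higher summed level of 6 adipocyte markers than any CTRL mouse, whose sums were 56.5 to 90.1 CPM. They were BLEO_day28 replicate 10 with 806.9 CPM, BLEO_day7 replicate 8 with 285.2 CPM and BLEO_day35 replicate 4 with 96.2 CPM. Timp4 in these libraries was 9.53, 5.83 and 1.78 CPM, and the first of them was the highest Timp4 value of all 75 mice. On day 28, 3 of the 4 adipocyte markers tested were called higher, and on day 7 none of the 4. Without these 3 libraries the Timp4 rise on day 7 was as large (log2FC 0.80, adjusted p = 0.00417), the log2FC on day 28 was −0.35 (adjusted p = 0.221) and that on day 21 passed the threshold (−0.53, adjusted p = 0.0434). The summed level of 7 cardiac muscle markers ranged from 70.7 to 297.9 CPM in CTRL mice, from 49.8 to 423.8 CPM on day 7 and from 47.4 to 2519 CPM on day 28. Of these 7 markers 0 were called on day 7 and 6 were called higher on day 28. All 3 skeletal muscle markers tested, of 6 listed, were also called higher on day 28, with a summed level of 2.79 to 1590 CPM against 3.60 to 7.31 CPM in CTRL mice. Over all tested genes 45.8% were called in either direction on day 7 and 43.3% on day 28. The median adipocyte sum was 63.7 CPM on day 28 and 63.6 CPM in CTRL mice. For cardiac muscle these medians were 146 and 125 CPM, and for skeletal muscle 5.08 and 6.29 CPM. The highest cardiac and skeletal muscle sums both came from BLEO_day28 replicate 10, the library with the highest adipocyte sum, and the next highest on that day were 890.6 and 16.4 CPM. The part of these markers in the Timp4 value on day 28 was not tested beyond the fit without that library and the other 2, in which the Timp1 log2FC on day 28 was 3.26 (adjusted p = 2.00e-07).

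**Figure D2:**
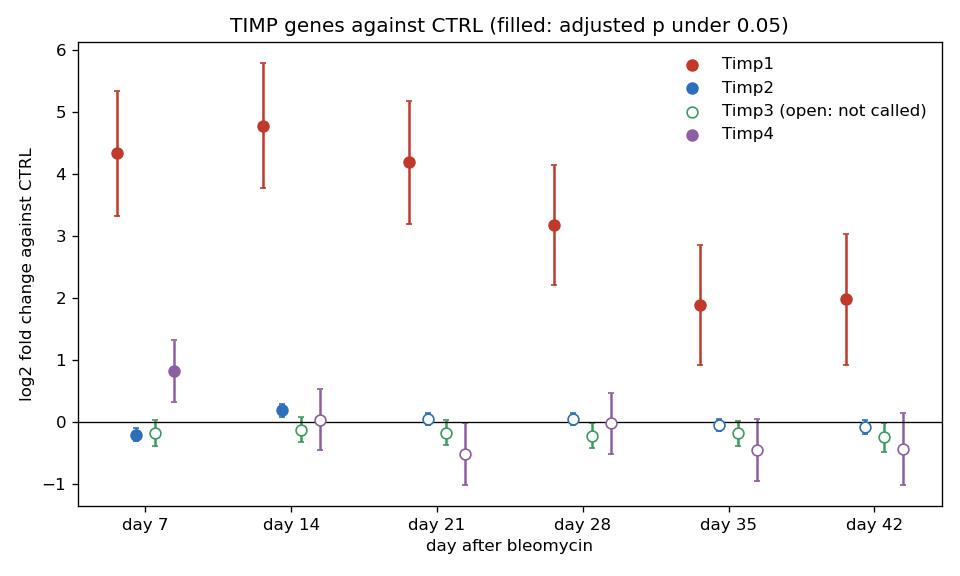
Log2 fold change against CTRL for each TIMP gene by day, with 95% intervals from the fitted SE, where filled points have an adjusted p under 0.05 and open points do not. Timp1 falls from 4.78 on day 14 to 1.98 on day 42, and the other 3 genes stay between −0.52 and 0.82.

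To compare the members with each other, counts were expressed per kilobase of merged exons and library size (FPKM). In CTRL mice the FPKM was 229 ± 8.45 (SD, n = 10) for Timp2, 206 ± 23.4 for Timp3, 5.84 ± 0.796 for Timp1 and 0.510 ± 0.172 for Timp4. On day 14 Timp1 reached 161 ± 104 FPKM (SD, n = 12), beside 261 ± 31.4 for Timp2, 188 ± 32.9 for Timp3 and 0.522 ± 0.209 for Timp4. The order of Timp2 and Timp3 depends on the length used, because the merged exons of Timp3 span 8144 bases and its longest transcript 4722 bases. With the longest transcript, Timp3 was at 354.8 FPKM and Timp2 at 240.9 FPKM in CTRL mice.

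As a share of the summed FPKM of the family, Timp1 made up 1.33% ± 0.199 in CTRL mice (SD, n = 10). Its share was 23.5% ± 5.38 on day 7 and 24.3% ± 11.5 at its peak on day 14, and it then decreased to 17.2% ± 14.1 and 10.1% ± 8.03 on days 21 and 28. On days 35 and 42 it was 5.06% ± 2.08 and 5.5% ± 3.35, and no BLEO-IPF mouse had a share as low as that of any CTRL mouse. Timp2 and Timp3 made up 52.1% and 46.5% in CTRL mice and 43.6% and 31.9% on day 14. The sum over the 4 genes went from 441 ± 25.1 FPKM in CTRL mice to 610 ± 135 FPKM on day 14 and was 413 ± 33.3 FPKM on day 42. Timp4 stayed under 0.5% of the sum in every mouse.

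**Figure D3:**
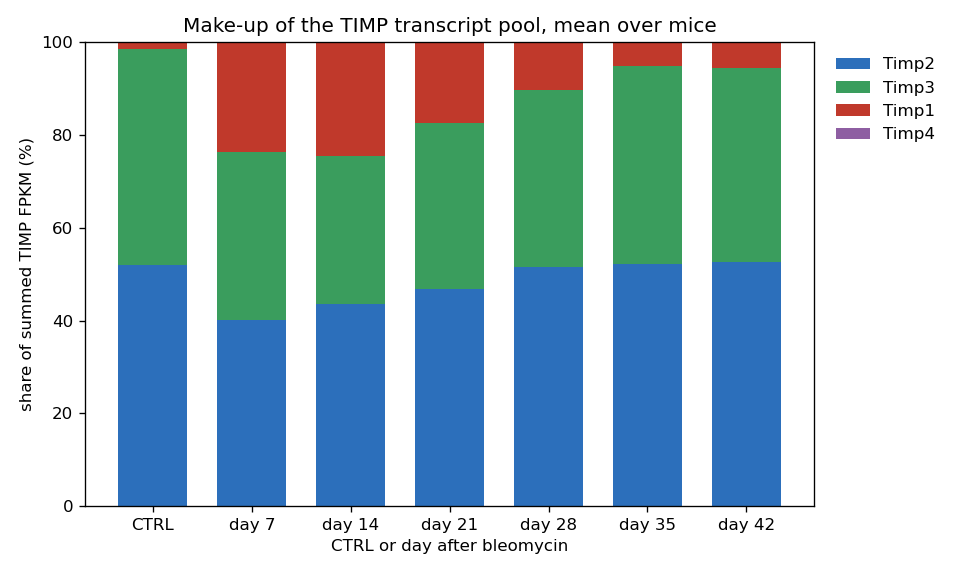
Mean share of each TIMP gene in the summed FPKM of the family (stacked bars, percent, from 0 to 100) in CTRL mice and on each day, with FPKM over merged exons. The Timp1 segment grows from 1.33% in CTRL mice to 24.3% on day 14 and is 5.5% on day 42, and Timp4 is too small to be seen.

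Members were also compared among mice of the same day, over 42 pairs of members and groups with log2 CPM and two-sided permutation tests, adjusted over the 42. By Pearson's r 2 pairs were called, and by Spearman's rho 1. Timp1 and Timp2 varied together among the 12 mice on day 14 (r = 0.85, permutation p = 0.00091, adjusted p = 0.0191, rho = 0.88, permutation p = 0.00041, adjusted p = 0.0172), and r was 0.82 without the 2 mice farthest from the median of Timp1. Within the 6 lower and the 6 higher mice on either side of the Timp1 gap, r was 0.63 and 0.75 (exact permutation p = 0.176 and 0.114) over a narrower range of Timp1, with too few mice to read an absence of the relation from it. Timp3 and Timp4 varied together on day 7 (n = 10, r = 0.89, permutation p = 0.00043, adjusted p = 0.0181), but by rank they did not pass after adjustment (rho = 0.76, permutation p = 0.0149, adjusted p = 0.314). Without the 2 mice farthest from the median of Timp3, r was 0.83.

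Col1a1, the main chain of type I collagen, served as a reference for fibrosis. It rose from 330.6 ± 72.7 CPM (SD, n = 10) in CTRL mice to 2472 ± 1163 CPM (SD, n = 12) on day 14, a log2FC of 2.90 (SE 0.33, adjusted p = 2.36e-11), and on day 42 its log2FC was 0.70 (SE 0.35, adjusted p = 0.133). Timp1 was still called on day 42, but whether the 2 genes differ in their return was not tested. Pairs of a member with Col1a1 were chosen after values had been seen, 28 in all, of which 8 were called by r. Timp1 and Col1a1 varied together among mice on day 21 (n = 12, r = 0.94, rho = 0.92, permutation p = 6.0e-05 and 0.00013, adjusted p = 0.00084 and 0.00182) and on day 28 (n = 12, r = 0.92, rho = 0.92, permutation p = 3.0e-05 and 9.0e-05, adjusted p = 0.00084 and 0.00182). Without the 2 mice farthest from the median of Timp1, r was 0.91 and 0.85. On day 14 r was 0.87 (n = 12, permutation p = 0.00065, adjusted p = 0.00455) and rho 0.84 (permutation p = 0.00121, adjusted p = 0.00840). Within the 6 lower and the 6 higher mice of that day r was 0.50 and 0.13 (exact permutation p = 0.303 and 0.817). The split was made on Timp1 itself, which narrows its range, and left too few mice to read an absence of the relation from it. Days 21 and 28 were not split. Timp2 gave r of 0.88, 0.80 and 0.85 with Col1a1 on days 14, 21 and 28 (permutation p = 0.00024, 0.00136 and 0.00107, adjusted p = 0.00224, 0.00635 and 0.00599), and rho of 0.87, 0.71 and 0.72 (permutation p = 0.00040, 0.0130 and 0.0102, adjusted p = 0.00373, 0.0454 and 0.0406). Without the 2 mice farthest from the median of Timp2, r was 0.82, 0.71 and 0.73. Timp3 and Timp4 gave the opposite sign on day 7, with r of −0.76 and −0.75 (n = 10, permutation p = 0.00933 and 0.0103, both with adjusted p = 0.0362) and rho of −0.82 and −0.88 (permutation p = 0.00617 and 0.0015, adjusted p = 0.0288 and 0.00840). Without the 2 mice farthest from the median of the TIMP gene, r was −0.66 and −0.64. In CTRL mice r had the same sign, at −0.65 and −0.63, but was not called (n = 10, permutation p = 0.0417 and 0.0529, adjusted p = 0.117 and 0.135). The list of 8 fibroblast markers includes Col1a1 itself, so its sum is not independent of Col1a1. The summed CPM was 2578 to 3363 in CTRL mice and 6128 to 16656 on day 14, with 7 of 8 called higher, against 3 of 8 on day 7. Over all tested genes 32.4% were called higher on day 14, and 45.8% were called in either direction on day 7. The part of these markers in the relations within a day was not tested.

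**Figure D4:**
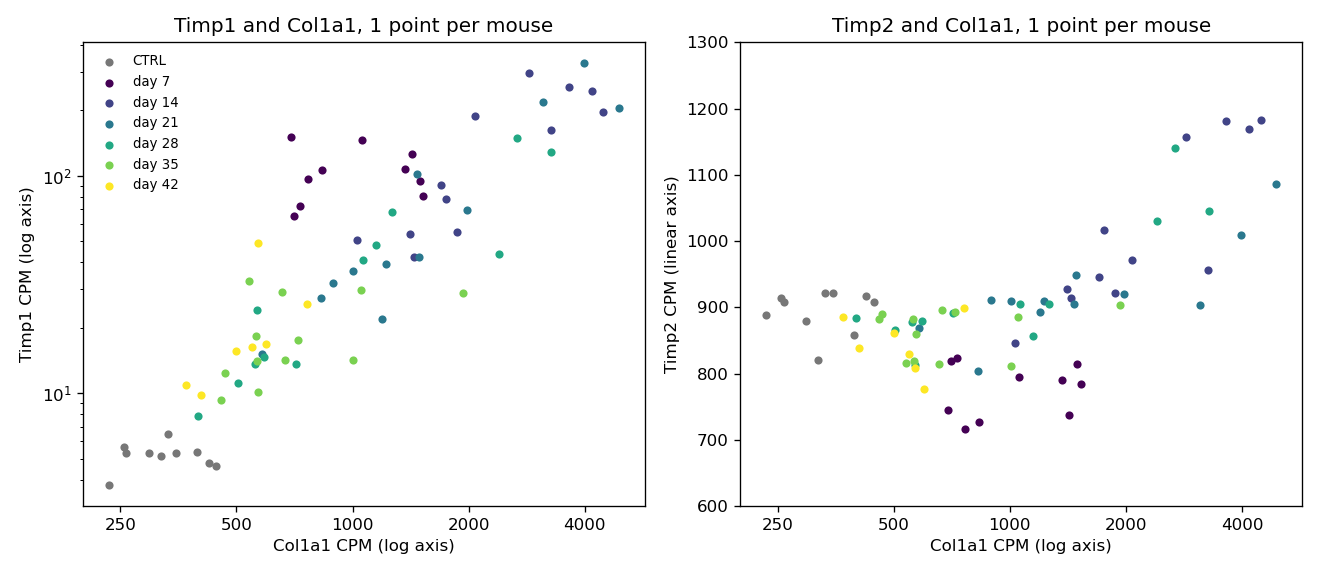
Timp1 CPM (left, log axis) and Timp2 CPM (right, linear axis that does not start at 0) against Col1a1 CPM (log axis), with 1 point per mouse coloured by group. Within days 21 and 28 both TIMP genes are higher in mice with more Col1a1, with r on log2 CPM of 0.94 and 0.92 for Timp1, and 0.80 and 0.85 for Timp2.

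The genes with the pattern most like each member were sought among 13797 genes, by Pearson's r of log2 CPM over the 75 libraries, as a description. For Timp1 they were Sfn, which encodes the adaptor protein 14-3-3 sigma (r = 0.97), Sfrp1, a secreted Wnt antagonist (0.95), and Tgfbi, a matrix protein induced by TGFβ (0.95). After subtraction of group means they were Uck2, a uridine-cytidine kinase (0.93), Ckap4, a membrane protein of the endoplasmic reticulum (0.92), and again Sfn (0.92). The likeness of Timp1 to Sfn therefore held both across and within groups. For Timp2 the values were lower, with Golim4 (0.79), the laminin chain Lamb1 (0.79) and the protein kinase A subunit Prkacb (0.77), and within groups C1qtnf1 (0.81), Snx9 (0.80) and Rab11fip5 (0.78). For Timp3 they were Tfdp2, a dimerization partner of E2F factors (0.71), Nckap1 (0.67) and Atp13a3 (0.66), and within groups Tfdp2 (0.76), Fmnl2 (0.73) and Entpd1 (0.72). For Timp4 they were Serpina3c (0.68), Serinc3 (0.66) and the glycogen branching enzyme Gbe1 (0.65), and within groups Adhfe1 (0.61) and Cyp1b1 (0.61). No member was among the 3 genes most like another member.

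The MMPs are the proteases that TIMPs block. Of 23 MMP genes listed, 17 had enough counts to be tested. On day 14, 11 rose and 2 fell, with a median log2FC of 1.07, where 32.4% of all tested genes were called higher and 29.9% lower. On day 42, 6 rose and 0 fell (median 0.52), against 13.7% higher and 11.0% lower over all genes. Mmp12, the macrophage elastase, had a log2FC of 5.09 (SE 0.44, adjusted p = 1.13e-15) on day 14 and was still at 3.90 on day 42. Mmp13, a collagenase, had a log2FC of 3.63 (SE 0.42, adjusted p = 1.79e-11) on day 14. Mmp10, a stromelysin, was nearly absent in CTRL mice, with 1 count in 10 mice, and averaged 3.88 CPM on day 14 (adjusted p = 2.63e-08), so no fold is given. The 2 that fell were Mmp15, a membrane-bound MMP (log2FC −1.08, SE 0.21, adjusted p = 1.29e-05), and Mmp28 (−0.91, SE 0.17, adjusted p = 4.16e-06). Macrophage markers moved with this list on day 14, with 6 of 7 called higher and sums of 601.1 to 1131 CPM against 322.5 to 387.7 CPM in CTRL mice, as did the fibroblast markers given beside Col1a1, and their part was not tested. The 6 MMP genes that were not tested had at most 13 counts in any mouse.

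**Figure D5:**
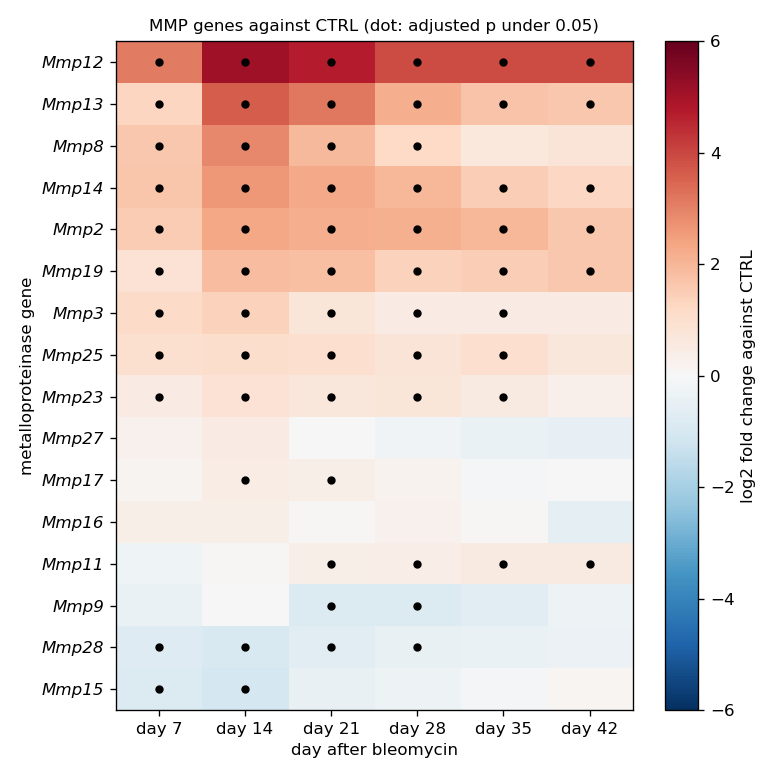
Log2 fold change against CTRL of the tested MMP genes by day (color scale), ordered by day 14, with a dot where the adjusted p is under 0.05. Mmp10 is left out because it had 1 count in all CTRL mice, and Mmp12, at the top, is at 5.09 on day 14 and 3.90 on day 42.

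ADAM and ADAMTS proteases, several of which Timp3 blocks, gave 18 higher and 4 lower of 26 tested on day 14 (28 listed, median log2FC 0.85), and 9 higher and 3 lower on day 42 (median 0.24). Over all tested genes 32.4% were higher and 29.9% lower on day 14, and 13.7% and 11.0% on day 42. Adamts4, an aggrecanase, had a log2FC of 5.06 (SE 0.61, adjusted p = 7.61e-11) and Adamts12 of 4.12 (SE 0.45, adjusted p = 4.77e-12). Adamts16 had 0 counts in all CTRL mice and 56 counts over the 12 mice on day 14, of which 11 had at least 1 (adjusted p = 9.67e-04). Adamts20 (−1.58), Adam28 (−1.0) and Adamts8 (−0.39) fell, with adjusted p of 5.58e-06, 1.53e-05 and 0.00797.

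Among binding partners and receptors of TIMPs, 8 of 13 tested rose and 4 fell on day 14 (14 listed, median log2FC 0.35), and 5 rose and 4 fell on day 42 (median −0.04). The list shares Mmp2, Mmp9 and Mmp14 with the MMP list and Reck with the list of other protease inhibitors, so these lists are not independent. Beside the 29.9% of all tested genes that were lower and the 32.4% that were higher on day 14, the count that fell is near the background. On day 42 these shares were 11.0% lower and 13.7% higher. Mmp14 and Mmp2, which form the complex with Timp2, had log2FC of 2.59 (SE 0.26, adjusted p = 1.99e-13) and 2.34 (SE 0.14, adjusted p = 5.39e-23). Cd63, the receptor of Timp1, had a log2FC of 1.42 (SE 0.15, adjusted p = 1.49e-12). The vascular endothelial growth factor receptor Kdr, which Timp3 can bind, fell with a log2FC of −0.97 (SE 0.16, adjusted p = 6.25e-07), the membrane-anchored MMP inhibitor Reck with −0.94 (SE 0.11, adjusted p = 4.57e-11) and the matrix protein Efemp1 with −0.65 (SE 0.13, adjusted p = 2.69e-05). Of 7 endothelial markers, 5 were called lower and 1 higher on day 14. Their summed levels were 2493 to 4005 CPM on that day against 3495 to 4782 CPM in CTRL mice, and their part in the fall of Kdr was not tested. Mmp9, the gelatinase that binds Timp1 as a proenzyme, had a log2FC of 0.00 (SE 0.28, adjusted p = 0.990) and is named because the list holds 1 gene that was not called.

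The next list held other protease inhibitors of the matrix, and also Pcolce, Pcolce2 and Serpinh1, which do not inhibit proteases. Of this list, 9 of 14 tested rose and 4 fell on day 14 (15 listed, median log2FC 0.43), and 4 rose and 1 fell on day 42 (median 0.29). The counts that fell are near the 29.9% and 11.0% of all tested genes called lower on these days, while 32.4% and 13.7% were called higher. A2m, the general protease trap alpha-2-macroglobulin, had a log2FC of 4.73 (SE 0.48, adjusted p = 3.60e-13) from 30 counts over all CTRL mice. Serpina3n, a serine protease inhibitor, had a log2FC of 2.83 (SE 0.30, adjusted p = 1.20e-12). Pcolce2 (−1.65, adjusted p = 9.54e-08), Reck and Wfdc2 (−0.48, adjusted p = 0.00244) were the lowest of those that fell.

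The last list held cytokines known to induce Timp1, with their receptors and downstream factors, and all 25 were tested. On day 14, 19 rose and 4 fell (median log2FC 0.74), and on day 42, 12 rose and 3 fell (median 0.38), where 32.4% and 13.7% of all tested genes were called higher and 29.9% and 11.0% lower. Fosl1, a subunit of the AP-1 factor, had a log2FC of 3.89 (SE 0.56, adjusted p = 1.13e-08), from 23 counts over all CTRL mice. Il6 had a log2FC of 3.62 (SE 0.56, adjusted p = 8.55e-08) from 20 counts, and Lif, a cytokine of the same family, of 2.86 (SE 0.21, adjusted p = 2.47e-18). Jun (−0.72, adjusted p = 5.09e-10) and the receptors Lifr (−0.69, adjusted p = 8.95e-11) and Il6ra (−0.64, adjusted p = 9.23e-10) fell. Macrophage markers also moved with this list, at the levels given beside the MMP genes, and their part was not tested.

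Genes that share a locus with a TIMP were low, and 3 of 4 were called higher on day 14 and 1 on day 42, beside 32.4% and 13.7% of all tested genes. Syn1, around Timp1, had a log2FC of 1.20 (SE 0.26, adjusted p = 4.81e-05) on day 14, from a mean of 0.972 to 2.23 CPM, and was the gene called on day 42 (1.22, adjusted p = 0.00107). Syn2, around Timp4, had a log2FC of 0.42 (SE 0.12, adjusted p = 0.00221) on day 14 and was not called on day 7 (log2FC 0.14). The part of Syn2 reads in the Timp4 values was not tested. Cep295nl, inside Timp2, had a log2FC of 0.52 (SE 0.21, adjusted p = 0.0247), and Syn3, around Timp3, of 0.07 (SE 0.20, adjusted p = 0.779).

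Total counts per library were 9240291 to 14665247 (median 10677163), with similar ranges in all groups. No 2 of the 375 pairs of libraries within a group agreed within sampling noise. Markers of lung cell types were present in every group, with summed AT2 cell markers of 20632 to 25579 CPM in CTRL mice and 5942 to 22692 CPM on day 14. Nothing in the labels ties 2 libraries to 1 mouse, so each was treated as 1 animal, and the labels name no sequencing batch.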

How the data were processed

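RNA from the inferior lobe of 75 mice was converted by the authors to stranded polyA libraries, sequenced single-end on a NextSeq 500 and aligned with STAR 2.7.0f to GRCm38 with Ensembl release 96. The deposited values are raw counts per gene, not normalized, and the counting program and its use of strand and of multi-mapped reads were not given in the sources used here. Total counts were 9240291 to 14665247 per library, and counting error limits mainly Timp4.

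Groups were taken from the sample labels. Counts were tested in R 4.3.3 with edgeR 4.0.16 (TMM, filterByExpr, quasi-likelihood F test, 1 mean per group, no covariate, Benjamini-Hochberg adjustment over 16221 genes, threshold 0.05). The fit was also run on simulated counts in which far fewer genes changed than the 62.4% called here on day 14. That run therefore does not check the fit under changes as wide as those in these data. SEs belong to the fitted log2FC, and SDs describe mice of 1 group. Log2 CPM used a prior count of 2, and FPKM used the exons of GENCODE vM21, the annotation of Ensembl 96. Permutation tests used 100000 resamples, or all orders with 7 or fewer mice. Python 3.11.15 with scipy 1.17.1 was used for these.

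Named genes were the 4 members, genes at their loci, in each of the 6 pathway lists the 3 highest and the 3 lowest genes called on day 14, the 3 genes most like each member, and Col1a1. Values of 2 genes that this rule names are not reported here. A gene with 3 or fewer counts over CTRL mice was given no fold. Members and lists were chosen with earlier results of these data known. Alternatives were DESeq2 1.42.0, other scaling factors and filters, fits of subsets, a replicate block, a minimum log2FC and another gene length.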

Additional observations from a re-analysis of the deposited data

Results flagged for a closer look

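Timp1 on day 42 was 49.2 CPM in replicate 1, which stood apart from the other 6 mice, at 9.78 to 25.7 CPM. Outliers were sought by Dixon's criterion in the 12 sets of a member and a group of 7 or 10 mice, and chance alone marks about 1 in 20 such sets. Without this mouse the Timp1 log2FC on day 42 was 1.59 (edgeR, adjusted p = 0.0315) against 1.98 with it.

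The effects of BLEO differed between days by edgeR's test of the difference itself. Timp1 was lower on day 42 than on day 14 by a log2FC of −2.80, and Timp2 by −0.27. From day 7 to day 14 Timp2 had a log2FC of 0.39 and Timp4 of −0.79, and Timp2 lay below CTRL on the first of these days and above it on the second. The causes were not tested.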

How the results depend on the processing

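Timp1 against CTRL, and day 42 against day 14, kept direction and call under all 9 alternative fits and without any single mouse. The log2FC without each mouse in turn ranged as follows against CTRL. For Timp1 it was 4.26 to 4.38, 4.63 to 4.86, 3.81 to 4.28, 2.85 to 3.28, 1.78 to 1.95 and 1.59 to 2.09 on days 7 to 42, with −3.17 to −2.65 for day 42 against day 14. For Timp2 it was −0.22 to −0.19 on day 7, 0.15 to 0.20 on day 14 and −0.29 to −0.24 for day 42 against day 14, all called. Timp4 on day 7 stayed called, at 0.70 to 0.91. Ranges that crossed the threshold were −0.26 to −0.13, −0.25 to −0.14 and −0.28 to −0.18 for Timp3 on days 7, 21 and 28, −0.63 to −0.45 for Timp4 on day 21 and −0.90 to −0.67 for Timp4 on day 14 against day 7. Ranges that crossed 0, never called, were −0.077 to 0.11 and −0.34 to 0.077 for Timp4 on days 14 and 28, and −0.00068 to 0.13 for Timp3 on day 14 against day 7. These and the fits without 3 libraries with adipocyte markers, where Timp4 on day 21 was called (−0.53, adjusted p = 0.0434), were chosen after seeing the data.

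Timp2 on days 7 (−0.21) and 14 (0.19) is lost with a minimum log2FC of 0.5. With upper quartile factors Timp3 on day 28 was called (−0.23) and Timp4 on day 14 turned to −0.00027. With only the groups compared in the fit, calls were gained by Timp3 on days 28 (−0.23) and 42 (−0.25) and Timp4 on days 21 (−0.52) and 35 (−0.45). With 7 mice in each group, which removes samples, Timp4 on day 14 against day 7 was not called (−0.73, adjusted p = 0.0656), Timp3 in the same comparison was −0.13, and 3039 and 2574 genes were called on days 35 and 42 against 4853 and 4001. With the longest transcript as length, Timp2 and Timp3 were at 240.9 and 354.8 FPKM in CTRL mice and Timp3 at 324.5 FPKM on day 14. The shares of Timp1, Timp2 and Timp3 in CTRL mice were then 0.980%, 40.2% and 58.8%, and those of Timp2 and Timp3 on day 14 were 36.5% and 43.5%. Cep295nl on day 14 lost its call without a filter (0.52) and with 7 mice per group (0.42). Timp4 had no value with 10 counts required in every sample. The cause of these changes was otherwise not tested.

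Replicate numbers are shared between groups in the labels but did not pair the mice. Deviations from group means had a median correlation of −0.0062 over 204 pairs with the same number and 0.0024 over 2196 with different numbers. With a replicate block the Timp1 log2FC on day 14 was 4.89 (adjusted p = 2.64e-12), and no call of a member changed. Depth limits Timp4, with 4 to 104 counts per mouse.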
